A study of Mus musculus with 6 samples.

Results

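The complement and coagulation genes described here are 43 genes of 16623 measured in the single-cell table. They were taken from a fixed list of gene symbols, without use of any expression value, and cover the classical, lectin, alternative and terminal complement components, the clotting factors with their cofactors, the contact system, fibrinogen, and the fibrinolytic enzymes and inhibitors. All 43 were found in the table. Livers of 3 wild-type (WT) mice and 3 mice lacking the histone deacetylase SIRT7 (KO), all 5 to 6 months old, were measured by single-cell RNA sequencing with the 10x Genomics Chromium 3′ chemistry, and each library combined hepatocytes with nonparenchymal cells. The labels give the genotype as WT or SIRT7 KO and the tissue as liver, they do not name the allele, and the series title calls the livers NASH (fatty liver with inflammation). Each title names its own mouse, and nothing was pooled as far as the labels say.

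Complement is a cascade of plasma proteins that marks particles for uptake and opens pores in membranes, and it can be started by antibody (classical pathway), by sugars (lectin pathway) or on the particle surface (alternative pathway), with all routes meeting at C3. Coagulation is a second protease cascade, which ends when thrombin turns fibrinogen into fibrin, and plasmin later dissolves the fibrin. Textbooks name the hepatocyte as the main source of most of these proteins, with known exceptions such as C1q from macrophages and factor VIII from endothelial cells, and hepatocytes near the portal vein (periportal) and near the central vein (pericentral) differ in many of their secreted products.

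The table holds 11610 cells and the libraries differ in size, with 552 to 5609 cells and 2511947 to 11069411 unique molecular identifiers (UMIs, counted RNA molecules) per mouse. KO1 holds the most cells and KO3 the fewest, and KO3 has a median of 3875 UMIs per cell against 1630 to 2199 in the other mice. Levels below are UMIs per 10000 UMIs of a cell (CP10K), averaged over the cells of a mouse. Sirt7 itself was at 0.718, 0.512 and 0.546 CP10K over all cells of WT1, WT2 and WT3 and at 0.10, 0.0814 and 0.139 in KO1, KO2 and KO3, so the libraries sort by their labels without overlap. Of barcode sequences, 13 occur in more than 1 mouse. Cells were clustered without the 43 genes, and clusters were named from marker genes. The hepatocyte-like cells (2979 cells, 99 to 941 per mouse) carry all 7 hepatocyte markers in every mouse, the macrophage-like cells (3475) all 8 macrophage markers, and the endothelial-like cells (513) all 10 endothelial markers. KO3 had only 8 endothelial-like cells and was left out of that class, which leaves 2 KO mice there. The stellate-like class (42 cells, at most 13 in a mouse) was too small for values per mouse.

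Promoter sequences are shown for 5 of the genes because they carry the contrast between the sources described below. Fibrinogen is made from 3 genes that lie side by side on chromosome 3 and were high in hepatocyte-like cells, C3 was the highest of the hepatocyte genes, and Pros1 was high in endothelial-like cells. The windows end at the transcription start, run 5′ to 3′ along the gene, come from RefSeq (build GRCm38.p6, the patch level of mm10), and are cut where GENCODE M21 places the transcript start further upstream. Capitals mark letters that match the HNF1 motif GTTAAT, the C/EBP motif TTGCNNAA or the PU.1 motif GAGGAAG on either strand.
Fgg, plus strand of chr3:83007474-83007723: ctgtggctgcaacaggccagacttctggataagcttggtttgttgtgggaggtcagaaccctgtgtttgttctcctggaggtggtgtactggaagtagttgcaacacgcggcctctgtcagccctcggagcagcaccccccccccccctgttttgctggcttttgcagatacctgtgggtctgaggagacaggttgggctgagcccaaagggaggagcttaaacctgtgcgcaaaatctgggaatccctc
Fga, plus strand of chr3:83025903-83026075: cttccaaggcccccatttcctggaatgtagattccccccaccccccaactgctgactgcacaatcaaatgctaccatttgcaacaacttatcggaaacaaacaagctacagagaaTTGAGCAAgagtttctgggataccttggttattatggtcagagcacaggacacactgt
Fgb, minus strand of chr3:83049864-83050113: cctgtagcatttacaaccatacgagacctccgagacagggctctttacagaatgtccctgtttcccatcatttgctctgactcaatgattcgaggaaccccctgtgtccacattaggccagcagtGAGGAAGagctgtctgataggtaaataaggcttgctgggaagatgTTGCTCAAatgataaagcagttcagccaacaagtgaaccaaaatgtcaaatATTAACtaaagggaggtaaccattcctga
C3, minus strand of chr17:57228137-57228386: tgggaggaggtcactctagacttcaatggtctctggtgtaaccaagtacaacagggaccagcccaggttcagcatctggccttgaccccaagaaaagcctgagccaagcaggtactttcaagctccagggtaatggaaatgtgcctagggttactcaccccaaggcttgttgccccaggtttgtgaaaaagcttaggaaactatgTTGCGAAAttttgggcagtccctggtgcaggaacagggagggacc
Pros1, plus strand of chr16:62854057-62854306: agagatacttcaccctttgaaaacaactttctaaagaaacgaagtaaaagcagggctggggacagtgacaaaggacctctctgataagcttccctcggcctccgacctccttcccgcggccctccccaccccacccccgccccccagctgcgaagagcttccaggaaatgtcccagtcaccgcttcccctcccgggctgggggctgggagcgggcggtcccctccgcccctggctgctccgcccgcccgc
RefSeq promoters were matched for 34 of the 43 genes, and C1qa, C2, C4b, Cfb, Cfi, Masp1, Plg, Proc and Kng1 had no entry. Within 250 bases upstream of the start, the HNF1 letters stood in 8 of 28 matched genes that were highest in hepatocyte-like cells (C4bp, Hc, C8a, C8b, F13b, Fga, Fgb and Vtn), against 7.49% of all 27025 genes with a promoter in the table. These counts use the whole RefSeq window, and the Fga match, 43 bases before the RefSeq start, lies in the stretch cut from the sequence printed above. The C/EBP letters stood in 8 of these 28 (C1s1, C3, C9, F9, F11, Fga, Fgb and Klkb1), against 10.8% of all genes. Of the 6 matched genes that were highest in another class, 1 held the HNF1 letters (C1ra), 0 held the C/EBP letters and 1 held the PU.1 letters (C1qc), which 12% of all genes hold. The HNF4 letters CAAAGTCC were in 0 of the 34 and in 1.38% of all genes. A match is a run of letters, and no match says only that these letters are absent from this window.

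Sources of the factors were read from the mean level in each class, with the stellate-like class left out. Of the 43 genes, 34 were highest in hepatocyte-like cells, 4 in macrophage-like cells (C1qa, C1qb, C1qc and C6) and 5 in endothelial-like cells (F8, Pros1, Masp1, C1ra and C2). Pooled over mice, Masp1, C1ra and C2 were higher still in the 42 stellate-like cells, at 8.52, 1.95 and 0.792 CP10K against 1.93, 0.314 and 0.490 in endothelial-like cells. These are descriptions without a test, over mice with at least 20 cells of the class. Counts from this 3′ chemistry come from the end of each transcript, so levels of different genes can be set side by side on the CP10K scale without a length correction.

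**Figure D1:**
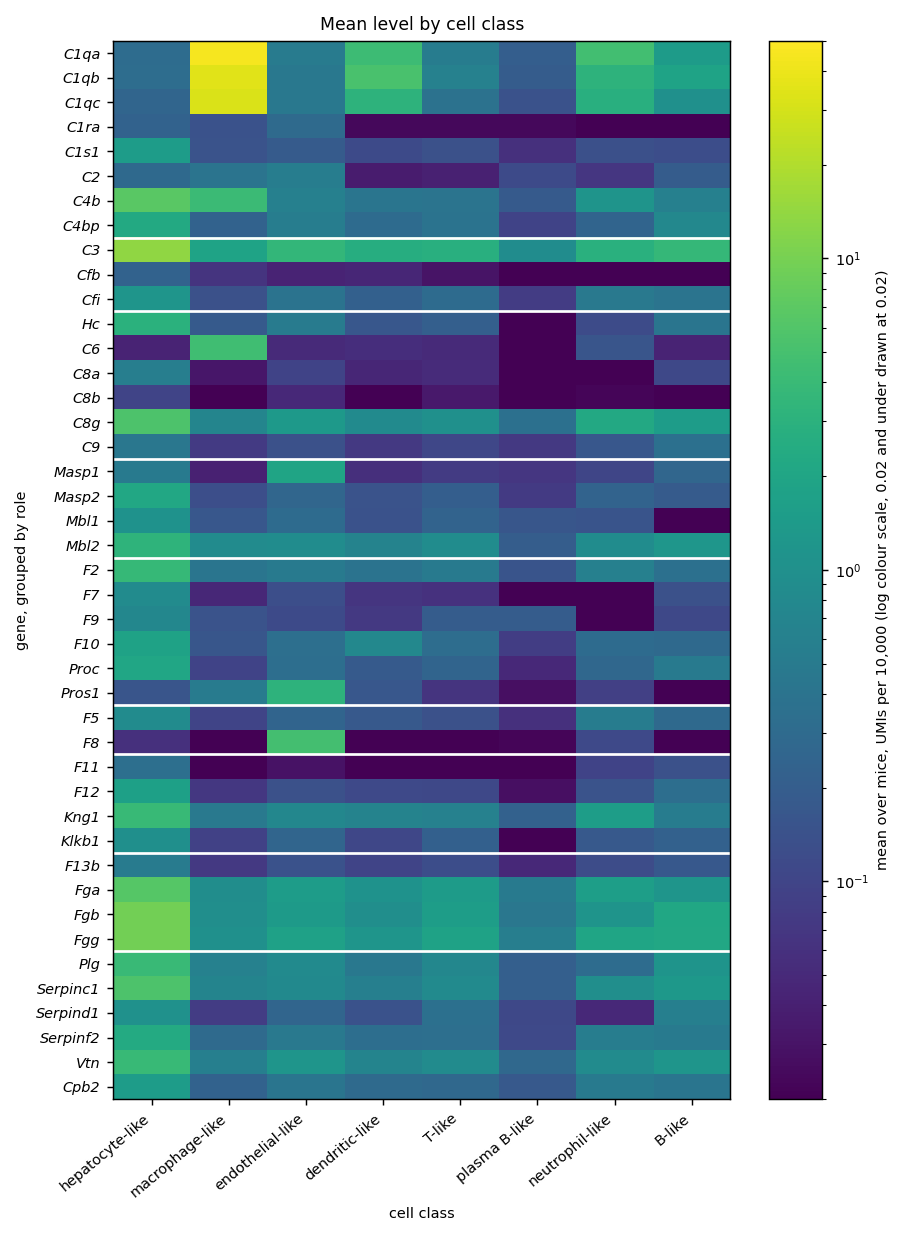
Mean level of each of the 43 genes (rows, grouped by role) in 8 cell classes (columns), as the mean over mice in UMIs per 10000 on a log color scale. Most rows are brightest in hepatocyte-like cells, C1qa at 44.9 stands out in macrophage-like cells, and F8 at 4.86 stands out in endothelial-like cells.

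Hepatocyte transcripts were also counted in cells of other classes, and the T-like cells, which should not make these factors, served as the measure of that background. Released RNA and mixed cells cannot be told apart in it. In T-like cells the 34 hepatocyte genes reached a median over mice of 5.46% to 34.6% of their level in hepatocyte-like cells of the same mouse, with the middle gene at 17.6%. The median over the 7 hepatocyte markers (Alb, Apoa1, Ttr, Apoc3, Apoa2, Tat and Asgr1) in T-like cells ranged from 7.98% to 34.8% between mice. In macrophage-like cells the middle gene was at 10.7% and in endothelial-like cells at 19.6%. Values of hepatocyte genes near these shares in another class are read as background and not as expression. The summed hepatocyte markers in T-like cells were 165, 122 and 106 CP10K in WT1, WT2 and WT3 and 112, 20.2 and 79.5 in KO1, KO2 and KO3. The genotypes overlap, with KO2 far below the other mice.

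The classical pathway divided between classes. C1q, which binds antibody on a target and is built from A, B and C chains, was highest in macrophage-like cells. C1qa was at 50.5, 39.1 and 33.5 CP10K in macrophage-like cells of WT1, WT2 and WT3 and at 48.9, 46.3 and 50.8 in KO1, KO2 and KO3. C1qb was at 32.4, 27.4 and 27.0 in WT and 41.6, 36.0 and 47.8 in KO, and C1qc at 31.2, 26.7 and 25.5 in WT and 35.6, 30.8 and 43.2 in KO. The 3 genes lie together on chromosome 4 (C1qb from 136880129 to 136886187, C1qc from 136889804 to 136893065 and C1qa from 136895917 to 136898803), with 3616 and 2851 bases between neighbors. Their next highest class was far below: 4.68 CP10K for C1qa in neutrophil-like cells, and 5.30 for C1qb and 3.13 for C1qc in dendritic-like cells.

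The proteases that C1q carries had other sources. C1s1, the C1s protease, was highest in hepatocyte-like cells at 1.51 ± 0.862 CP10K (SD, n = 6), against 0.190 in endothelial-like and 0.139 in T-like cells. C1ra, the C1r protease, was low in the classes with values per mouse, with 0.300 ± 0.20 (SD, n = 5) in endothelial-like and 0.231 ± 0.115 (SD, n = 6) in hepatocyte-like cells, which do not differ beyond their spread. C2, which with C4 forms the classical C3 convertase, was likewise low, at 0.551 ± 0.533 (SD, n = 5) in endothelial-like, 0.409 ± 0.179 (SD, n = 6) in macrophage-like and 0.289 ± 0.137 (SD, n = 6) in hepatocyte-like cells, and these neighbors overlap as well. C2 and Cfb lie on the minus strand of chromosome 17, where 85 bases separate the end of C2 from the start of Cfb.

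C4b, the C4 component, had a pair of sources. Hepatocyte-like cells held 4.48, 5.79 and 7.05 CP10K in WT and 6.87, 4.12 and 12.2 in KO, and macrophage-like cells held 3.24, 4.14 and 2.06 in WT and 4.35, 5.47 and 5.70 in KO. T-like cells of the same mice stood at 0.302 to 0.533, so the macrophage value was above T-like cells in 6 of 6 mice and reached a median of 67.4% of the hepatocyte level, the highest share in macrophage-like cells of any of the 34 genes. C4a, the close copy of C4b, was not analysed here, and reads that both copies share cannot be assigned with certainty. C4bp, which restrains C4, was at 2.30 ± 1.20 CP10K (SD, n = 6) in hepatocyte-like cells and 0.394 in T-like cells.

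C3, Cfi and Cfb were highest in hepatocyte-like cells. C3, on which all routes meet, was the highest of the 34 hepatocyte genes, at 15.2, 32.7 and 12.8 CP10K in WT1, WT2 and WT3 and 7.51, 3.86 and 10.0 in KO1, KO2 and KO3, and it was at 2.75 ± 1.01 (SD, n = 6) in T-like cells. Cfi, which cleaves C3b and C4b, was at 1.17 ± 0.796 (SD, n = 6) in hepatocyte-like cells. Cfb, the protease subunit of the alternative C3 convertase, was low, at 0.265, 0.505 and 0.199 in WT and 0.0642, 0.0852 and 0.298 in KO, and rests on 3 to 77 UMIs per mouse.

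C6 stood apart from the other pore-forming components. It was at 4.53, 5.86 and 3.86 CP10K in macrophage-like cells of WT1, WT2 and WT3 and 5.00, 3.99 and 4.23 in KO1, KO2 and KO3, while hepatocyte-like cells held 0 to 0.0924 and T-like cells 0 to 0.158. The lowest macrophage value was thus far above every value in the other 2 classes. Hc (C5), which starts pore assembly, was at 2.93, 3.73 and 2.45 CP10K in hepatocyte-like cells of WT and 2.92, 1.10 and 4.77 of KO. C8g, the C8 gamma chain gene, was at 9.67, 7.43 and 4.57 in WT and 3.62, 2.20 and 6.65 in KO, and both genes overlapped between genotypes. The rest were lower in the same cells. C8a was at 0.567 ± 0.390, C9 at 0.439 ± 0.207 and C8b at 0.101 ± 0.0652 (SD, n = 6 each). C9 was nearly as high in B-like cells (0.357), a class with few cells per mouse.

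In the lectin pathway, the sugar receptors and their proteases differed in source. Mbl2, which binds mannose, was highest in hepatocyte-like cells, at 4.50, 5.34 and 2.39 CP10K in WT and 2.25, 1.64 and 3.39 in KO. The protease gene Masp2 was at 1.84, 1.99 and 2.55 in WT and 1.92, 0.792 and 3.87 in KO, and Mbl1, the other mannose receptor, at 1.07 ± 0.440 (SD, n = 6). The genotypes overlap in each. Masp1, the protease that activates MASP-2, was highest in endothelial-like cells among the classes with values per mouse, at 2.35, 2.31 and 1.55 CP10K in WT1, WT2 and WT3 and 1.68 and 1.59 in KO1 and KO2. Hepatocyte-like cells held 0.128 to 0.931 of Masp1 and T-like cells 0.0311 to 0.179, both below each endothelial value.

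The vitamin K dependent factors, which need a modified amino acid to bind membranes, were highest in hepatocyte-like cells except for 1. Prothrombin (F2) was at 3.49, 6.39 and 3.06 CP10K in hepatocyte-like cells of WT1, WT2 and WT3 and 2.70, 1.54 and 5.28 in KO1, KO2 and KO3. Protein C (Proc), which inactivates the cofactors, was at 2.12, 2.37 and 1.93 in WT and 1.99, 0.970 and 3.06 in KO. F2 and Proc overlapped between genotypes, with KO2 lowest. F10 was at 1.84 ± 0.803, F7 at 0.864 ± 0.330 and F9 at 0.745 ± 0.388 (SD, n = 6 each). Protein S (Pros1), the partner of protein C, was at 2.91, 3.84 and 3.53 in endothelial-like cells of WT1, WT2 and WT3 and 2.39 and 3.25 in KO1 and KO2. In hepatocyte-like cells Pros1 was at 0.157 ± 0.0773 (SD, n = 6), and macrophage-like cells, at 0.524 ± 0.0518 (SD, n = 6), lay between them, above T-like cells (0.0643 ± 0.0809) in 6 of 6 mice.

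The cofactors that speed the clotting proteases had different sources. Factor VIII (F8), absent in hemophilia A, was at 4.67, 5.21 and 2.23 CP10K in endothelial-like cells of WT1, WT2 and WT3 and 4.15 and 8.04 in KO1 and KO2. Hepatocyte-like cells held 0.0299 to 0.0894 of F8 and T-like cells 0 to 0.0317, so no other value came near. Factor V (F5) was at 1.09, 1.22 and 0.577 in hepatocyte-like cells of WT and 0.784, 0.311 and 1.25 of KO, and at 0.140 ± 0.0426 in T-like cells (SD, n = 6).

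**Figure D2:**
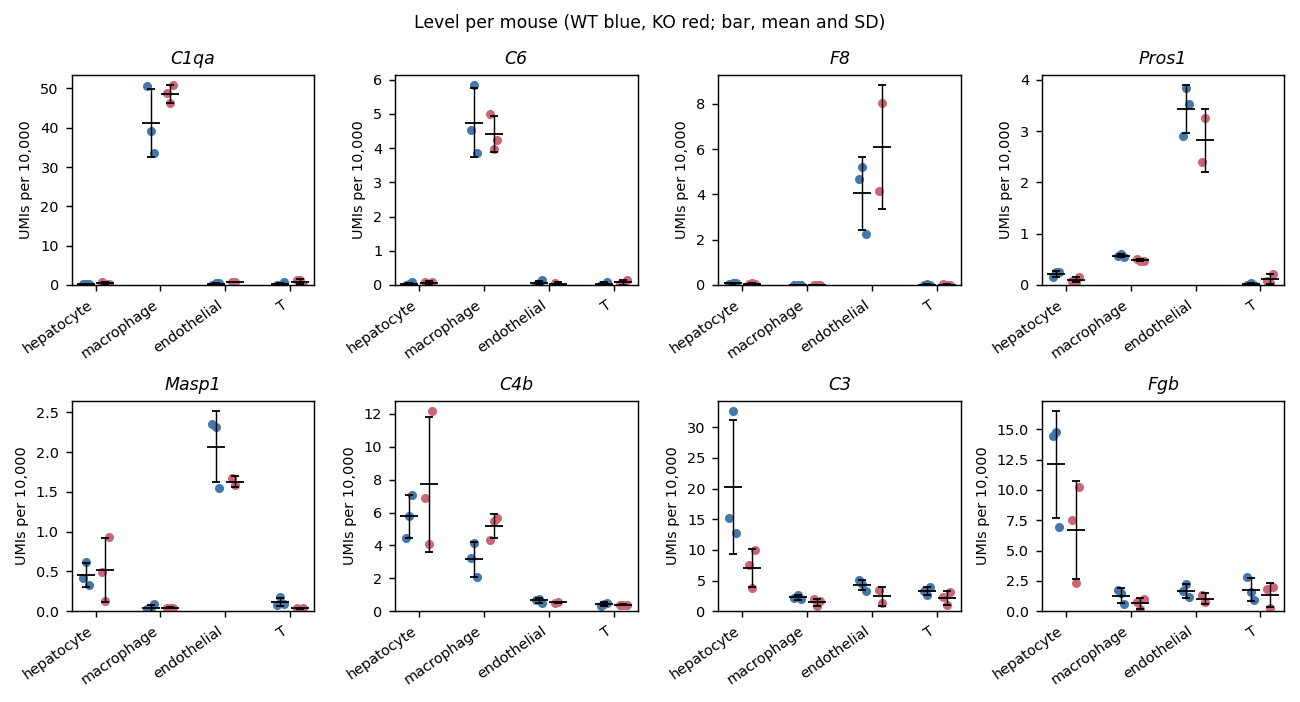
Level of 8 genes per mouse (points, WT blue and KO red) in hepatocyte-like, macrophage-like, endothelial-like and T-like cells, in UMIs per 10000, with bars for the mean and SD of each genotype. C1qa and C6 are high in macrophage-like cells, F8, Pros1 and Masp1 in endothelial-like cells, and C4b in both hepatocyte-like and macrophage-like cells.

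The genes of the contact system, which starts clotting on surfaces, were highest in hepatocyte-like cells. Kng1, the kininogen that releases bradykinin, was at 5.10, 8.91 and 2.88 CP10K in WT and 2.12, 1.14 and 3.43 in KO. F12, the first protease of the system, was at 1.48, 1.52 and 1.76 in WT and 1.37, 0.475 and 3.54 in KO, and Klkb1, plasma kallikrein, at 0.941, 1.27 and 0.687 in WT and 1.13, 0.508 and 1.42 in KO. In each the genotypes overlap and KO2 is lowest. F11 was at 0.349 ± 0.192 (SD, n = 6). Kng2, a close copy of Kng1, was at 0.840 in hepatocyte-like cells, and reads shared by the copies cannot be assigned with certainty. The fibrinogen genes, whose promoters are printed above, were among the highest. Fgg was at 17.7, 16.0 and 6.83 CP10K in hepatocyte-like cells of WT and 6.61, 1.73 and 7.92 of KO, and Fgb at 14.4, 14.8 and 6.96 in WT and 7.56, 2.35 and 10.2 in KO. Fga, which lies between them, was at 6.29 ± 3.29 (SD, n = 6). In all 3 the KO2 mouse was lowest. F13b, the carrier subunit of the enzyme that cross-links fibrin, was at 0.524 ± 0.282 (SD, n = 6).

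Fibrinolysis and inhibitor genes were all highest in hepatocyte-like cells. Antithrombin (Serpinc1) was at 6.87, 8.73 and 3.54 CP10K in WT1, WT2 and WT3 and 3.54, 2.20 and 9.09 in KO1, KO2 and KO3. Plasminogen (Plg) was at 4.27, 7.09 and 3.89 in WT and 2.81, 1.07 and 5.28 in KO. Vitronectin (Vtn), an adhesive protein that also blocks the terminal complex, was at 5.52, 7.22 and 2.86 in WT and 2.44, 1.01 and 4.05 in KO. In all 3 the KO mice spread widely, with KO2 lowest, and the genotypes overlap. Serpinf2 (antiplasmin) was at 2.37 ± 0.931, Cpb2 (the carboxypeptidase that slows fibrinolysis) at 1.5 ± 0.896 and Serpind1 (heparin cofactor) at 1.06 ± 0.633 (SD, n = 6 each).

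A wider list held 53 further complement and coagulation genes. Of these, 19 were highest in hepatocyte-like cells, 14 in endothelial-like and 4 in macrophage-like cells, and the other 16 in 5 other classes. Macrophage-like cells held Vsig4, the complement receptor of Kupffer cells, at 18.4 ± 5.36 CP10K, the ficolin Fcna at 13.8 ± 3.66 and properdin (Cfp) at 10.7 ± 2.36 (SD, n = 6 each). Endothelial-like cells held the complement regulator Cd55 at 7.13 ± 1.69, the thrombin receptor F2r at 3.09 ± 1.02 and the tissue factor inhibitor Tfpi at 2.74 ± 0.886 (SD, n = 5 each). Hepatocyte-like cells held clusterin (Clu) at 2.82 ± 1.58 and C1 inhibitor (Serping1) at 1.81 ± 0.815 (SD, n = 6 each). Cfd, C4a, C7, Serpina5, A2m and Bdkrb2 were on the list and were not analysed here.

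The hepatocyte-like cells formed 2 clusters. Cluster 2 made up 59.9%, 80.2% and 53.5% of them in WT1, WT2 and WT3 and 56.0%, 80.8% and 19.1% in KO1, KO2 and KO3. Values over all hepatocyte-like cells thus mix the clusters in shares that differ between mice. Cluster 4 (1210 cells, led by Slc22a30, Mlxipl and Gcgr) had the higher level in 6 of 6 mice for 13 of the 43 genes, and cluster 2 (1769 cells, led by Fabp1, A2ml1 and Sult2a5) did so for 0. Over all 9950 genes that passed the filter, 30.0% were higher in cluster 4 in every mouse and 12.6% in cluster 2, so the count of 13 (all among the 42 genes that passed) lies near the background. The median log2 difference, cluster 4 minus cluster 2, was 0.92 for the 42 genes and 0.62 for all genes. C4b was at 2.01, 4.30 and 2.34 CP10K in cluster 2 of WT1, WT2 and WT3 and 1.04, 1.49 and 1.26 in KO1, KO2 and KO3, but at 8.16, 11.8 and 12.5 and at 14.3, 15.2 and 14.7 in cluster 4. The log2 difference, cluster 4 minus cluster 2 within a mouse, averaged 2.73 for C4b, 2.67 for F12, 2.50 for Hc and 2.30 for C1s1. It was negative for 5 of the hepatocyte genes, averaging -0.76 for C8b, -0.64 for C9, -0.30 for Cpb2, -0.20 for Mbl1 and -0.11 for Mbl2. The clusters were made from these cells, so this contrast is a description without a test. Cluster 4 cells had a median of 2241 UMIs and cluster 2 cells 1247, and the part of depth in the contrast was not tested.

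**Figure D3:**
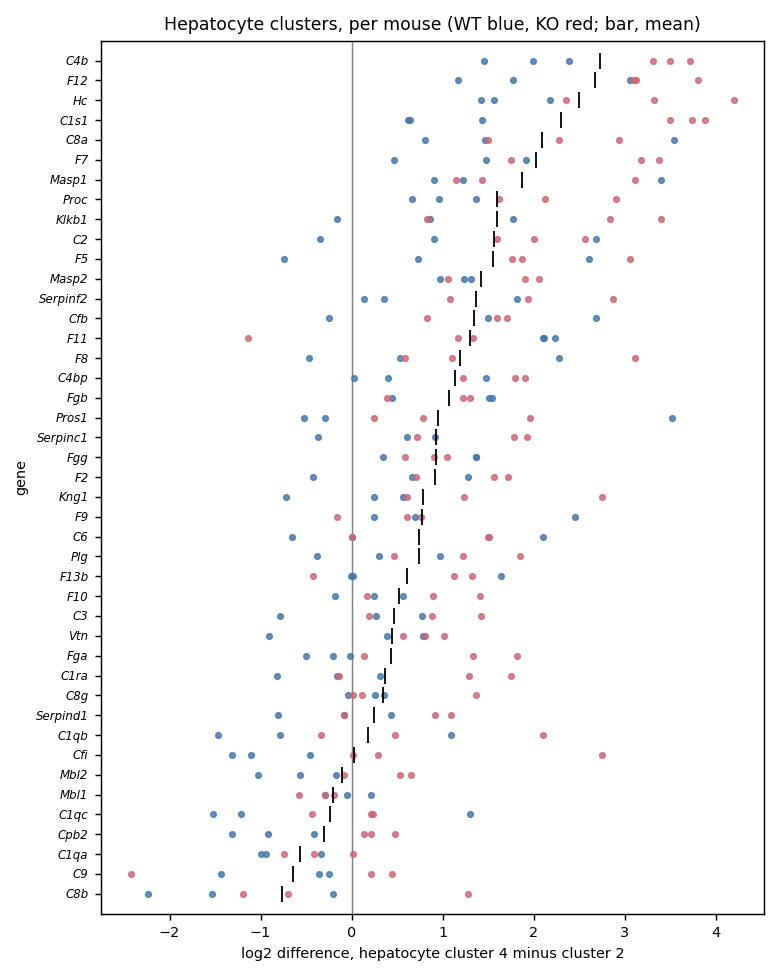
Log2 difference between hepatocyte cluster 4 and cluster 2 within each mouse (points, WT blue and KO red; bar, mean over 6 mice) for each of the 43 genes, ordered by the mean. C4b, F12, Hc and C1s1 lie to the right of 0 in all 6 mice.

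Position along the lobule was read from a zone score, the log2 ratio of 10 pericentral to 10 periportal marker genes in a cell. The hepatocyte-like cells of each mouse were split at its median score into a pericentral and a periportal side of equal cell number, and the difference was tested within mice with limma. With each marker left out of its own score, 18 of 20 markers lay on their own side. Cyp2a5, at a mean log2 difference of -0.18, and Pigr, at 0.0, did not. Under the split within mouse and cluster, used below, 20 of 20 did. Of 42 genes tested (C6 was under the filter of 0.05 CP10K), 0 passed an adjusted p of 0.05, as did 0 of all 9848 genes (0% called). At an unadjusted p under 0.05, 7 were lower on the pericentral side and 0 higher, against 19.6% and 5.42% of all genes. The median log2 difference was -0.32 for the 42 genes and -0.22 for all genes.

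The genes with the largest periportal values were also higher in cluster 4. Hc differed by -0.64, -0.77 and -0.63 on the log2 scale in WT1, WT2 and WT3 and -2.87, -2.13 and -0.83 in KO1, KO2 and KO3 (mean -1.31, SE 0.381, limma adjusted p = 0.111). F12 averaged -1.11 (SE 0.351, limma adjusted p = 0.116) and C4b -1.06 (SE 0.331, limma adjusted p = 0.114). Masp1 averaged -1.11 as well, but was not lower in every mouse. C1s1 at -1.01 and C8a at -0.93 were likewise lower on the pericentral side of 6 of 6 mice. In all, 5 of the 42 had this sign in every mouse, against 13.4% of all genes, so the count lies near the background.

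The split also separated the clusters, since cluster 2 made up 36.3% to 99.6% of the pericentral sides and 1.8% to 65.7% of the periportal sides. The clusters differ in the zone markers themselves. The periportal markers summed to 30.7 CP10K in cluster 2 and 74.6 in cluster 4 of WT, and to 13.3 and 58.1 in KO. The pericentral markers summed to 50.6 and 37.8 in WT and to 49.0 and 19.5 in KO. A split within clusters thus also removes the part of the zone score that lies between the clusters. With cells split at the median within each mouse and cluster, a choice made after seeing the data, the median difference was 0.00 for the 42 genes and 0.00 for all genes. Hc then averaged -0.40 (SE 0.219) and was still lower in 6 of 6 mice, F12 averaged -0.21 (SE 0.181), and C4b averaged -0.09 (SE 0.134). Between the outer tertiles of the score, Hc, F12 and C4b passed the threshold (limma adjusted p = 0.0463, 0.0462 and 0.0459), as did 628 of 9837 genes (6.38% called).

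**Figure D4:**
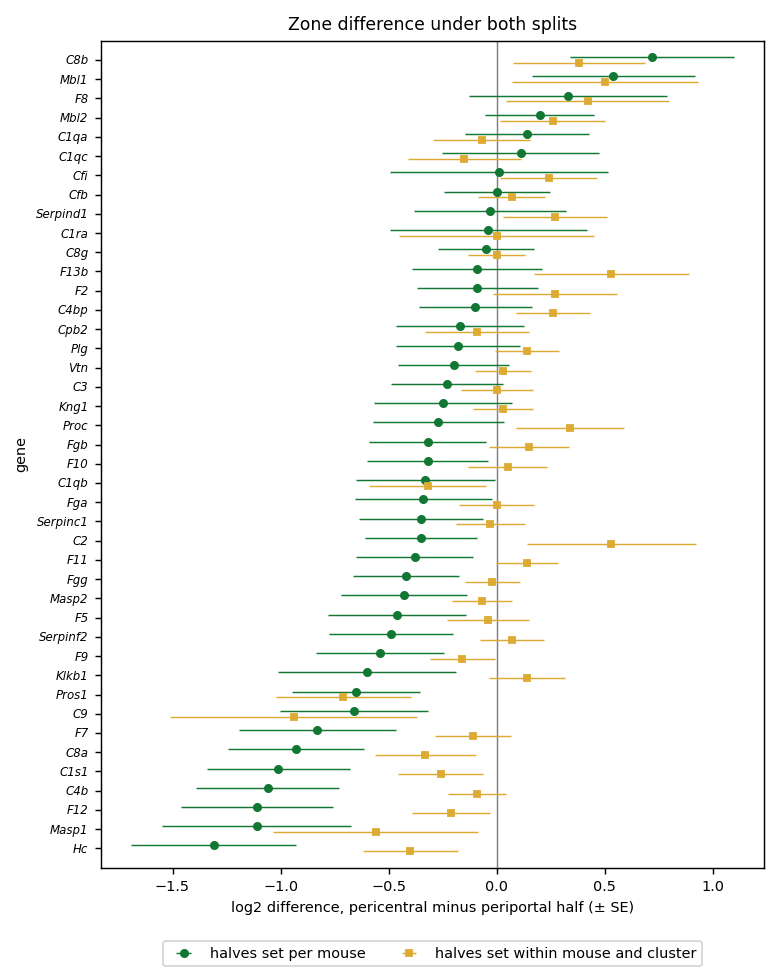
Log2 difference between the pericentral and the periportal side of hepatocyte-like cells for each gene (mean over 6 mice with SE), with sides set per mouse (green circles) or within mouse and cluster (yellow squares). The differences of Hc, F12 and C4b at the lower left move toward 0 under the second split.

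The comparison of genotypes asked whether loss of SIRT7 went with another level of these genes. In hepatocyte-like cells most had a lower mean in KO, but the genotypes overlapped in all but 6 genes and none passed the test. Of 42 genes tested, 0 passed an adjusted p of 0.05 by limma, against 0.111% of 9870 genes (2 higher and 9 lower). The mean was lower in KO for 36 of the 42, against 36.5% of all genes, and the median log2 difference, KO minus WT, was -0.65 for the 42 genes and 0.16 for all genes. At an unadjusted p under 0.05, 8 were lower and 1 higher, against 2.02% and 5.41% of all genes. The size of the median rested in part on KO2, since it was -0.12 without KO2, -0.40 without WT2 and -0.99 without KO3, and 0 genes passed in each case. Cluster 2 held 80.8% of the hepatocyte-like cells of KO2 and 19.1% of those of KO3, and the part of this share in the medians was not tested.

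Without overlap between the genotypes, 5 were lower in KO and 1 higher, against 3.14% and 9.97% of all genes. Cfi was at 1.65, 2.42 and 1.20 CP10K in WT1, WT2 and WT3 and 0.405, 0.292 and 1.04 in KO1, KO2 and KO3 (log2 difference -1.65, SE 0.457, limma adjusted p = 0.333). Every KO mouse was below every WT mouse, but KO3 was close to WT3. Fga was at 9.11, 9.88 and 7.22 in WT and 4.25, 0.969 and 6.33 in KO (log2 difference -1.52, SE 0.576, limma adjusted p = 0.612). C3, with the values above, differed by -1.48 (SE 0.509, limma adjusted p = 0.549), and Cpb2 was at 1.89, 2.86 and 1.75 in WT and 0.586, 0.446 and 1.49 in KO (log2 difference -1.46, SE 0.449, limma adjusted p = 0.422). C8b, at about 0.1 CP10K, was the other gene that was lower.

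The gene that was higher, C1qc, is a macrophage gene, at 0.134, 0.133 and 0.0339 CP10K in hepatocyte-like cells of WT and 0.760, 0.309 and 0.192 of KO. The summed 8 macrophage markers in the same cells were at 1.33 to 2.78 CP10K in WT and 1.36 to 4.25 in KO, highest in KO1, where macrophage-like cells were most numerous, and at most 2 of the markers were at 0 in a mouse. The part of this RNA in the C1qc difference was not tested. The 7 hepatocyte markers had lower values in KO as well, since their sum was 484 ± 144 CP10K in WT and 275 ± 44.7 in KO (SD, n = 3 each), all 7 had a lower mean in KO, and their median log2 difference was -0.63, near that of the 42 genes. The part of a shared change in hepatocyte RNA was not tested. The 5 erythroid markers summed to 62.5 CP10K in hepatocyte-like cells of WT1 and to 0.0450 to 3.56 in the other mice, and the median of the 42 genes without WT1 was -0.61.

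The difference was computed on each side of the zone split. On the pericentral side the median log2 difference was -1.04 for 42 genes and 0.08 for all, with 38 of the 42 lower in KO against 44.2% of all genes, and 0 passed the adjusted threshold (0.127% of 9477 genes called). By no overlap 9 were lower and 0 higher, against 3.40% and 5.96% of all genes. Cfi was at 1.77, 2.96 and 2.06 CP10K on the pericentral side of WT and 0.387, 0.0439 and 0.841 of KO (log2 difference -2.77, SE 0.663, limma adjusted p = 0.334), and Cpb2 at 2.08, 3.28 and 2.0 and 0.549, 0.212 and 1.23 (log2 difference -2.06, SE 0.522, limma adjusted p = 0.340). In both genes every KO mouse lay below every WT mouse. Fga was at 9.04, 11.1 and 8.40 in WT and 3.11, 0.423 and 5.66 in KO (log2 difference -2.22), Kng1 at 4.98, 11.1 and 3.42 and 1.55, 0.560 and 2.93 (log2 difference -2.02), C3 at 13.9, 38.5 and 13.2 and 5.11, 3.20 and 8.93 (log2 difference -1.85) and Mbl2 at 4.46, 6.04 and 3.32 and 2.37, 1.45 and 3.25 (log2 difference -0.98). None of these passed the adjusted threshold, although the genotypes do not overlap. Without KO3, 10 genes passed (C4bp, Hc, F2, Cfi, Cpb2, Serpinf2, F12, Serpind1, Kng1 and Plg), all lower in KO, with 147 genes in all, and the median was -1.58. The number of genes tested without KO3 is not given, so these counts have no percent of all genes beside them. KO3 had 19.1% of its hepatocyte-like cells in cluster 2 and a median of 3875 UMIs per cell, the highest of the mice. Without KO2 the median was -0.58 and 0 genes passed.

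On the periportal side the median was -0.33 for 42 genes and 0.24 for all genes, 25 of the 42 had a lower mean in KO against 36.2% of all genes, and 0 passed (0.119% of 10072 genes called). By no overlap 2 were lower and 1 higher (C1qa, a macrophage gene), against 3.06% and 12.7% of all genes. C3 was at 16.6, 26.9 and 12.4 in WT and 9.91, 4.52 and 11.1 in KO (log2 difference -1.15), and C9 at 0.586, 0.704 and 0.608 and 0.401, 0.285 and 0.422 (log2 difference -0.72). The median turned to 0.25 without KO2, and it was -0.16 without WT1, -0.11 without WT2, -0.53 without WT3 and -0.60 without KO3. Whether the sides differ was tested directly as the difference of the zone difference, and 0 of 42 genes passed, as did 0 of 9848 (0% called). The median of that difference was -0.78 for the 42 genes and -0.15 for all genes, and at an unadjusted p under 0.05 there were 8 lower and 0 higher, against 4.05% and 1.56% of all genes. With sides set within clusters the median was -0.17, against -0.02 for all genes.

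Hepatocyte cluster 2 and cluster 4, fitted apart after seeing the data, gave different values. In cluster 2, 2 of 41 genes passed (0.514% of 8554 genes called). C1s1 fell, from 0.783, 1.23 and 0.799 CP10K in WT1, WT2 and WT3 to 0.209, 0.119 and 0.286 in KO1, KO2 and KO3 (log2 difference -1.98, SE 0.440, limma adjusted p = 0.0382), and Cpb2 fell, from 2.10, 3.25 and 2.26 to 0.546, 0.411 and 1.37 (log2 difference -1.80, SE 0.384, limma adjusted p = 0.0297). The median over the 41 was -1.07, against -0.09 for all genes, and 14 were lower without overlap, against 8.63% of all genes. In cluster 4, 0 of 43 passed (0.243% of 10307 genes called), the median was -0.19 against 0.20, and C1s1 was higher in KO, at 3.41, 2.44 and 3.75 against 1.25, 1.92 and 2.24 (log2 difference 0.83, SE 0.378, limma adjusted p = 0.474). The difference between the clusters in the effect of genotype was tested within mice and passed for 0 of 42 genes, as for 0 of 9950 (0% called), and C1s1 had the smallest p, with cluster 4 minus cluster 2 at 0.64, 0.62 and 1.43 in WT and 3.74, 3.88 and 3.5 in KO (limma adjusted p = 0.438).

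In macrophage-like cells C1qb, C4b and C2 had higher values in every KO mouse than in any WT mouse, but none of the genes passed the test. Of 37 genes tested, 0 passed (0.412% of 9948 genes called), and by no overlap 3 were higher and 8 lower, against 7.33% and 9.81% of all genes. The count of 3 higher thus lies near the background. C1qb, with the values above, differed by 0.53 (SE 0.158, limma adjusted p = 0.215), and C1qa, at 41.1 ± 8.65 CP10K in WT and 48.7 ± 2.29 in KO (SD, n = 3 each), overlapped. C4b was higher in each KO mouse than in any WT mouse (log2 difference 0.76, SE 0.242, limma adjusted p = 0.238), as was C2, at 0.233, 0.417 and 0.158 in WT and 0.502, 0.528 and 0.617 in KO (log2 difference 0.98, SE 0.364, limma adjusted p = 0.319). The class held 48, 42 and 216 cells in WT1, WT2 and WT3 and 2540, 564 and 65 in KO1, KO2 and KO3. Values of a low gene such as C2 thus rest on few cells in WT1, WT2 and KO3. C6 did not separate, at 4.75 ± 1.02 in WT and 4.41 ± 0.531 in KO (SD, n = 3 each). Pros1 was at 0.567, 0.595 and 0.542 in WT and 0.502, 0.475 and 0.465 in KO (log2 difference -0.22, SE 0.280, limma adjusted p = 0.819).

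Of the 8 genes that were lower there, all but Pros1 were hepatocyte genes (C3, Cfi, C8g, Mbl1, F10, Fgg and Cpb2). Fgg was at 1.99, 1.20 and 1.08 CP10K in macrophage-like cells of WT and 0.849, 0.153 and 0.822 of KO, C8g at 1.29, 1.0 and 0.670 and 0.521, 0.133 and 0.591, and C3 at 2.18, 2.64 and 1.97 and 1.94, 0.874 and 1.63. The hepatocyte markers in the same cells summed to 80.4 ± 32.1 CP10K in WT and 34.2 ± 21.6 in KO (SD, n = 3 each), with none of the 7 at 0. Relative to T-like cells of the same mouse, the median log2 difference of the 37 genes was -0.10, against -0.59 without that step. The latter was -0.21 without WT1 and -0.21 without KO2. By that measure C1qb turned to -1.81 (limma adjusted p = 0.761), C8g to 0.56 (limma adjusted p = 0.891) and C3 to 0.04 (limma adjusted p = 0.992). T-like cells held 0.0248 to 0.612 CP10K of C1qb in WT and 0.276 to 1.58 in KO, far below the macrophage-like cells. They served as the background for hepatocyte genes, and C1qb is a macrophage gene.

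In endothelial-like cells the genes that endothelial cells themselves held did not separate by genotype. F8 was at 4.04 ± 1.59 CP10K in WT (SD, n = 3) and 6.10 ± 2.75 in KO (SD, n = 2), Pros1 at 3.43 ± 0.476 and 2.82 ± 0.612, and Masp1 at 2.07 ± 0.448 and 1.63 ± 0.0674, and none of these passed the test. Of 40 genes tested 1 passed, lower in KO, against 0.207% of 10647 genes called (0.150% called lower). This was Vtn, a hepatocyte gene, at 1.37, 1.49 and 2.07 in WT1, WT2 and WT3 and 0.559 and 0.337 in KO1 and KO2 (log2 difference -1.78, SE 0.407, limma adjusted p = 0.0446). Plg, at 1.22, 1.45 and 1.22 in WT and 0.360 and 0 in KO, came next (log2 difference -3.23, limma adjusted p = 0.0608). Both KO mice were below all WT mice in these 2 genes, and the same held for Kng1, at 1.06, 1.05 and 0.878 in WT and 0.250 and 0.505 in KO, and for Serpinc1, at 1.12, 1.48 and 0.584 and 0.549 and 0.339. C1qa was higher, at 0, 0.454 and 0.528 and 0.860 and 0.733.

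T-like cells held 0.352 to 1.31 CP10K of Vtn and 0.137 to 1.02 of Plg over the 6 mice, below each WT endothelial value of these genes. As a median share of the hepatocyte-like level of the same mouse, however, the classes were close. Vtn was at 24.9% in endothelial-like and 26.8% in T-like cells, and Plg at 20.4% and 19.6%. By the rule above, such shares are read as background. The hepatocyte markers in endothelial-like cells summed to 137 ± 33.8 in WT (SD, n = 3) and 68.4 ± 60.9 in KO (SD, n = 2). Relative to T-like cells of the same mouse, Vtn differed by -0.70 (limma adjusted p = 0.915) and 0 of 40 genes passed. In that fit 0 of all 10647 genes passed (0% called), so the lost call is not particular to Vtn. The Vtn call was also lost without WT1 (limma adjusted p = 0.271), WT2 (0.181) or WT3 (0.169), each by limma. Plg passed alone without WT2 and C8g alone without WT3. Without KO1 or KO2 only 1 KO mouse is left in this class, so no conclusion is drawn from calls in those fits. Relative to T-like cells C1qa turned to -0.84 and Serpinc1 to 0.21. By no overlap 7 were lower and 2 higher, against 13.1% and 9.81% of all genes. Of the wider list 1 of 36 genes passed, Hrg, also a hepatocyte gene, at 0.485, 0.729 and 0.954 in WT and 0.131 and 0 in KO (log2 difference -2.97, SE 0.676, limma adjusted p = 0.0442). In hepatocyte-like cells 0 of 25 and in macrophage-like cells 0 of 35 of the wider list passed.

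**Figure D5:**
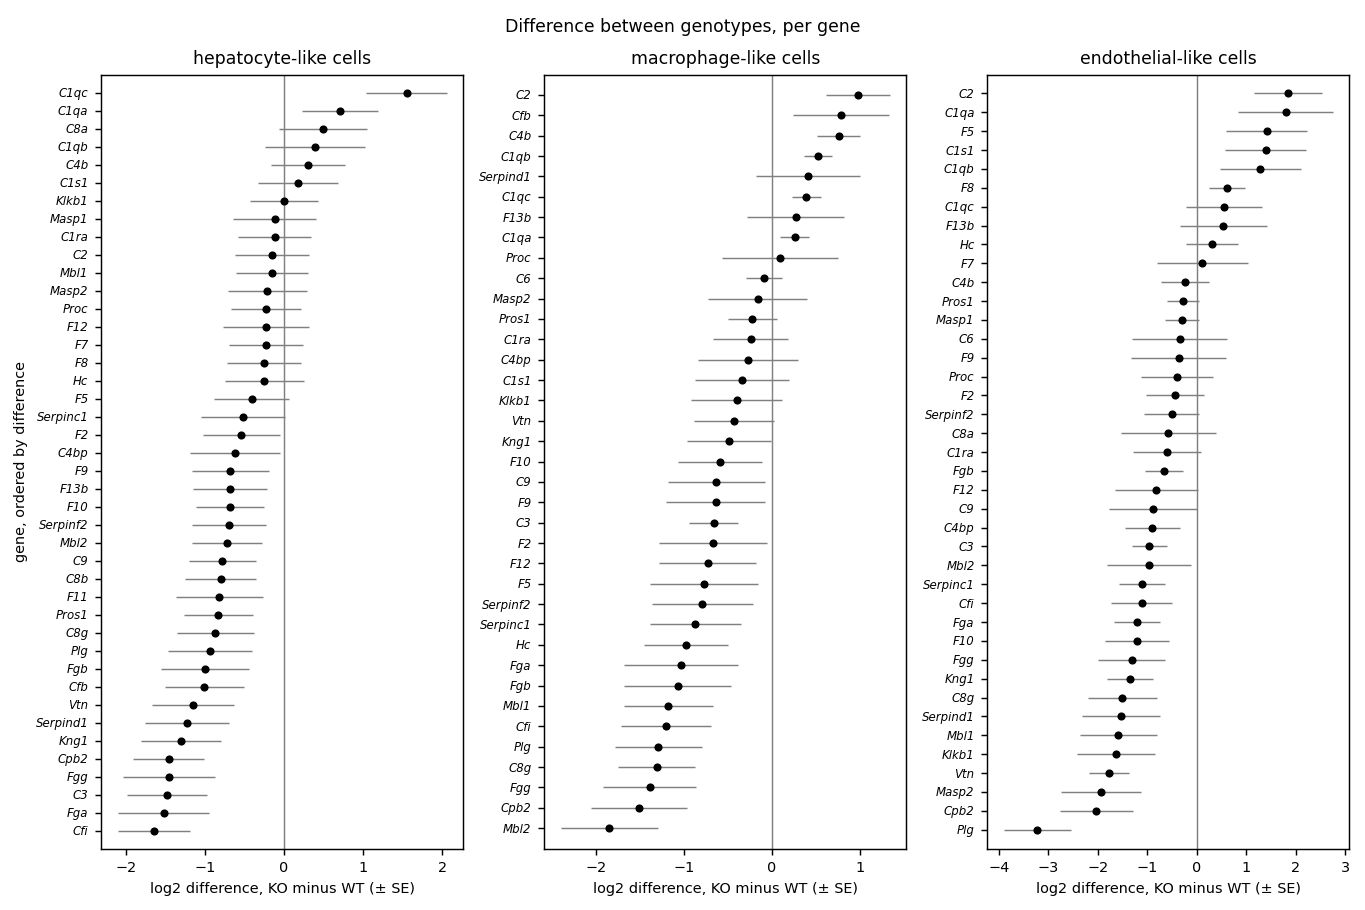
Log2 difference between genotypes, KO minus WT, with its SE, for each gene tested in hepatocyte-like, macrophage-like and endothelial-like cells, ordered by size within each panel. Most genes lie to the left of 0 in hepatocyte-like cells, and Vtn in endothelial-like cells, at -1.78, is the gene past the adjusted threshold. The Vtn call was lost relative to T-like cells, with the replicate block, and without WT1, WT2 or WT3.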

How the data were processed

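The authors aligned reads to mm10 with Cell Ranger 6.0.0, filtered cells on gene number and mitochondrial reads, and normalized to 10000 UMIs per cell. The deposited values are the natural log of CP10K plus 1, and undoing it gave whole UMIs within 0.02 for all 12961041 values above 0. Cells were assigned to mice by barcode ending. Doublet removal before deposit is not given in the sources used here. Scrublet marked 46 of 11610 cells, too few to be useful, so none were removed, and removing the top 5% of scores per mouse (583 cells) was an alternative.

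Cells were clustered with scanpy 1.11.5 and leidenalg 0.10.2 (1000 variable genes without the 43 genes, the wider list and hemoglobin genes, 50 components, 3 neighbors per mouse, resolution 0.35; 25 of the 43 would have been variable genes) and named from marker lists. The mouse was the replicate, and mice needed 20 cells. Log2(mean CP10K + 0.05) was tested with limma 3.58.1 (R 4.3.3, trend and robust), two-sided, after a filter at 0.05 CP10K on the mean, with Benjamini-Hochberg adjustment over every gene that passed the filter and a threshold of 0.05. The fit was tested on simulated data. The genes and lists were chosen with earlier results of these data known, and a gene of the wider list is not reported here.

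Values of every mouse were printed for genes past the threshold, for up to 3 genes of the highest level per role group, and for up to 6 genes per comparison whose genotypes did not overlap and whose class mean reached 0.5 CP10K. Others named were chosen after their values were seen. Fold changes are on the log2 scale with the pseudocount and understate changes of low genes, and depth limits low genes most. WT and KO mice share only their numbers, as the labels give no litter or day.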

Additional observations from a re-analysis of the deposited data

Results flagged for a closer look

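In 3 of 42 genes tested, 1 mouse stood apart from the other 5 in the difference between the pericentral and the periportal side, by a gap over 0.625 of the range of the 6 mice. Chance gives this in about 1 of 20 groups. Mbl1 was at 2.87 in WT3 and between -0.21 and 0.46 in the others. C4bp was at -1.14 in KO1 and between -0.09 and 0.26 in the others. C2 was at 0.51 in WT3 and between -0.79 and -0.33 in the others. WT3 had 99 hepatocyte-like cells, the fewest of the 6 mice.

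The 42 stellate-like cells entered no comparison, and 3 of the 43 genes were higher there, pooled over mice, than in any other class. Masp1 was at 8.52 CP10K from 84 UMIs, against 1.93 pooled over the endothelial-like cells. C1ra was at 1.95 from 14 UMIs, against 0.314 in endothelial-like cells, and C2 at 0.792 from 8 UMIs, against 0.490.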

How the results depend on the processing

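Of the counts of genes past the threshold, those on the periportal side and in the difference of the zone difference stayed at 0 under each alternative run. The number highest in hepatocyte-like cells stayed between 33 and 35. In all hepatocyte-like cells the count was 0 except with cluster 2 alone (2), and without each mouse it was 0 to 0. On the pericentral side it was 3 between outer tertiles (Cfi, Cpb2 and C3), against 0.358% of 9207 genes called, and 0 to 10 without each mouse. In macrophage-like cells it was 1 with the replicate block (Fgg) and 0 without each mouse. In endothelial-like cells it was 2 with a pseudocount of 0.5, with no filter and with the genes among the variable genes, and 0 with a filter at 0.2 CP10K, with summed UMIs, centred on the median, without trend or robust and relative to T-like cells, and 0 to 6 without each mouse (0 without WT1 or KO2, 6 without KO1). The fits without KO1 or KO2 leave 1 KO mouse in endothelial-like cells, so no conclusion is drawn from their counts. The replicate block gave 1 there (C8g), with Vtn at an adjusted p of 0.165 (limma). Between zones it was 3 with outer tertiles (6.38% of 9837 genes called), and for the cluster difference 1 with a pseudocount of 0.5 (C1s1). The share of all genes called is not given for the replicate block, pseudocount, filter and variable gene alternatives. Their counts thus have no background to be set against. Relative to T-like cells the sign turned for C1qb (-1.81), C3 (0.04) and C8g (0.56) in macrophage-like cells, and for C1qa (-0.84) and Serpinc1 (0.21) in endothelial-like cells. C1qb and C1qa are macrophage genes, while T-like cells served as the background for hepatocyte genes. The causes of the turned signs were not tested. The deviations of same-numbered mice had correlations of -0.11 to 0.18, and those of mice with different numbers -0.22 to 0.19. With 2 or 3 mice per genotype, these values cannot show whether mice share a litter or day.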

Other observations

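On the wider list, the stellate-like cells held the collectin Colec11, a sugar receptor of the lectin pathway, at 23.4 CP10K from 193 UMIs, against at most 0.0750 pooled over any other class. Its partner Colec10 was at 7.04 from 59 UMIs and C1 inhibitor (Serping1) at 9.81 from 87, both above the pooled level of every other class. These are values over 42 cells of 6 mice, without a test. Neutrophil-like cells held the C5a receptor C5ar1 at 4.19, 1.39 and 1.49 CP10K in WT1, KO1 and KO2, the mice with at least 20 such cells. Dendritic-like cells, which include cells with monocyte genes, held F13a1, the catalytic subunit of the fibrin cross-linking enzyme, at 0.722, 0.883 and 0.758 in WT and 1.47, 0.903 and 0.363 in KO.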
